A study of Mus musculus with 4 samples.

Results

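Growth factor receptors of hematopoietic progenitors were examined in lineage-negative, c-Kit-positive (LK) cells, a fraction rich in stem and progenitor cells, after short exposure to a drug pair. The genes were 8 receptor chains, Csf1r, Csf2ra, Csf2rb, Csf2rb2, Csf3r, Kit, Flt3 and Il3ra, each taken as the probe set that the platform annotation assigns to that symbol alone. Of the 8, 6 were measured, among 30142 named genes and 65956 features in all. The beta chain genes Csf2rb and Csf2rb2 were not analysed here. The 4 samples were LK cells from the non-obese diabetic (NOD) mouse strain, kept in StemSpan medium for 4 h at 37 °C. The 2 Combo samples received dmPGE2, a stable prostaglandin E2 analog, and dexamethasone, a synthetic glucocorticoid, each at 10 µM, and the 2 Vehicle samples received DMSO. Every sample shared the strain, the sort and the culture, so freshly isolated cells were not compared, and with no array for either drug alone their separate effects cannot be told apart. Neither the age and sex of the mice nor any pooling of cells is stated in the labels. The design text describes biological duplicates without naming their source, and p-values measure only the spread between these samples.

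Growth factor receptors decide which progenitors survive, divide and mature in response to a given factor. Kit, Flt3 and Csf1r are receptor tyrosine kinases of one structural class, which bind stem cell factor, FLT3 ligand and the macrophage factor M-CSF (or IL-34). Csf3r is a single-chain receptor for the granulocyte factor G-CSF, while the alpha chains Csf2ra (GM-CSF) and Il3ra (IL-3) bind their ligand and signal only with a beta chain. Cytokine receptors of this kind work through JAK kinases and STAT factors, STAT5 among them. Kit marks stem and early progenitor cells and stays on mast cells, Flt3 marks multipotent, lymphoid and dendritic progenitors, Csf1r the monocyte lineage and Csf3r the granulocyte lineage.

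Each value is the RMA signal (log2) of a probe set on 1 array, with 1 array per sample, and differences are Combo minus Vehicle. The array medians lay between 4.43 and 4.44 in Combo and between 4.36 and 4.40 in Vehicle over the features. The brightest background probe set reached 5.55, and all 6 receptors lay above it on all 4 arrays. The negative control probe sets had higher medians, 5.85 and 5.79 in Combo and 5.89 and 5.81 in Vehicle. Flt3 lay close to these in replicate 1, at 6.01 in Combo and 5.92 in Vehicle, so its detection there is uncertain. Genes are said to lie within the background range where the means of both groups were at or below 5.55, though single arrays may exceed it. The progenitor markers were present: none of 11 measured (Mpo, Myb, Cd34 and others) lay within the background range, and Mpo averaged 17.76 ± 0.18 in Combo and 18.00 ± 0.19 in Vehicle (SD, n = 2 each). Of 7 measured lineage antigens, Cd3e, Cd4, Cd8a, Cd5, Ly6g and Klrb1c lay within that range in both groups. The exception was the myeloid integrin Itgam, at 9.59 and 10.19 in Combo against 8.82 and 8.46 in Vehicle. Arrays carry no read depth, and 2 arrays per group limit the precision. In such bulk samples, fewer cells of a type and less RNA per cell cannot be told apart.

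Promoters of RefSeq (GRCm38.p6) are shown for a pair of receptors: Csf3r, whose arrays did not overlap between the groups, and Csf2ra, the only one of those searched with a cAMP response element, the DNA site of CREB, through which prostaglandin E2 can act. Each runs 5′ to 3′ on the strand of the gene, from 250 bases before to 50 after its start, at chr4:126024409-126024708 (plus strand) for Csf3r and chr19:61228369-61228668 (minus strand) for Csf2ra. Capitals mark matches to the motifs searched.
Csf3r: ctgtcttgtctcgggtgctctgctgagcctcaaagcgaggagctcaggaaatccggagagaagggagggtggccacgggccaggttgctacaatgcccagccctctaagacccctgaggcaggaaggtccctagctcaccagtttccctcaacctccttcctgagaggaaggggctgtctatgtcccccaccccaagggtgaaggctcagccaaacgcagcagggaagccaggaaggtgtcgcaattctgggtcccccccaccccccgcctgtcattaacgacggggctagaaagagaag
Csf2ra: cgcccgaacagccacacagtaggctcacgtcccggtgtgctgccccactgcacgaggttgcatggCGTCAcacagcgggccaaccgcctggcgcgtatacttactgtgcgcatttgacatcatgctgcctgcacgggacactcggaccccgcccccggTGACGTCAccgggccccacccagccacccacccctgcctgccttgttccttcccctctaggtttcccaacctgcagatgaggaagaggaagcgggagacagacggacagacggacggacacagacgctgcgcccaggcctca
Both strands were searched for letters of 5 kinds of site. The cAMP response element was searched in its full form, TGACGTCA, and in a shorter form, which is the first 5 letters of the full one. The others were a glucocorticoid receptor site arm, AGAACA, a PU.1 site, GAGGAAGT, a C/EBP site, TTGCGCAAT, and a GATA factor site, AGATAA. Promoters were searched for 5 of the 6 measured receptors: Csf2ra, Csf3r, Kit, Flt3 and Il3ra. Csf1r was left out of the search, so nothing is said of its promoter. The full cAMP element was in Csf2ra alone, 92 to 85 bases before the start, and it holds overlapping short forms on both strands. A further short form in the same promoter lies on the opposite strand. The other motifs had no match in the windows of these 5 genes. Over all 32851 promoter windows of the table, 1.79% held the full and 20.8% the short cAMP element, 19% the glucocorticoid receptor arm, 3.2% the PU.1 letters, 11.2% the GATA letters and 0.0487% the C/EBP letters. A match describes the letters only.

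None of the 6 receptors passed limma's test over all features (Benjamini-Hochberg adjusted p under 0.05), which called 2 of 65956 features, or 0.00303%. At an unadjusted p under 0.05, Csf1r alone passed, 1 of 6, lower in Combo, against 2.44% of all features called lower and 3.14% called higher (5.58% in either direction). The Combo arrays lay wholly below the Vehicle arrays for Csf1r and Csf3r, 2 of 6, against 13.9% of all features, and wholly above them for 0 of 6, against 20.4%. The 6 differences ran from -0.91 to -0.01, with a median of -0.21, where the median of all features was 0.02 and 44.6% of features had a negative difference.

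Csf1r, the M-CSF receptor of the monocyte lineage, had signals of 8.39 and 8.67 in Combo, against 9.12 and 9.77 in Vehicle. Both Combo arrays were below both Vehicle arrays, which were 0.64 apart. The mean was 8.53 ± 0.20 in Combo and 9.45 ± 0.46 in Vehicle (SD, n = 2 each), a log2 difference of -0.91 (SE 0.26, 95% interval -1.61 to -0.22) or 1.88-fold lower signal in Combo (limma unadjusted p = 0.0206, adjusted p = 0.802). In absolute size this difference exceeded that of 98.3% of features. It moved to -0.59 without Vehicle replicate 2.

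Kit, the stem cell factor receptor, had signals of 10.51 and 9.62 in Combo, against 10.18 and 10.32 in Vehicle. The Combo arrays lay on either side of the Vehicle arrays, which were close to each other. The log2 difference was -0.18 (SE 0.32, 95% interval -1.04 to 0.67, limma adjusted p = 0.98), and it was 0.27 without Combo replicate 2 and -0.63 without Combo replicate 1. The cells were sorted on c-Kit protein, so the presence of its transcript is no finding. An interval this wide does not show that the groups were alike.

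Flt3, the receptor of multipotent and lymphoid-primed progenitors, had signals of 6.01 and 6.71 in Combo, against 5.92 and 7.25 in Vehicle. The groups overlapped, and the replicates of a group differed more than the groups did, by 0.70 in Combo and 1.33 in Vehicle. Its log2 difference of -0.23 (SE 0.51) had the widest 95% interval of the 6, from -1.58 to 1.12 (limma adjusted p = 0.986), and it turned to 0.44 without Vehicle replicate 2 and to 0.12 without Combo replicate 1.

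Csf3r, the G-CSF receptor of the granulocyte lineage, had signals of 7.91 and 8.33 in Combo, against 8.45 and 9.45 in Vehicle. The groups did not overlap, but the upper Combo array came close to the lower Vehicle array, and the Vehicle arrays were 1.01 apart, more than the means of the groups. The mean was 8.12 ± 0.29 in Combo and 8.95 ± 0.71 in Vehicle (SD, n = 2 each), a log2 difference of -0.83 (SE 0.38, 95% interval -1.84 to 0.18) or 1.78-fold lower signal in Combo (limma unadjusted p = 0.0863, adjusted p = 0.92). It was -0.33 without Vehicle replicate 2 and -1.33 without Vehicle replicate 1.

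The alpha chains differed little. Csf2ra, the GM-CSF-binding chain, had signals of 6.48 and 6.38 in Combo, against 6.58 and 6.47 in Vehicle. Its arrays were the tightest of the 6 receptors, and its log2 difference was -0.10 (SE 0.13, 95% interval -0.46 to 0.25, limma adjusted p = 0.972). Il3ra, the IL-3-binding chain, had signals of 7.31 and 7.74 in Combo, against 7.37 and 7.71 in Vehicle. The Combo arrays lay just outside the Vehicle arrays on both sides, with a log2 difference of -0.01 (SE 0.22, 95% interval -0.59 to 0.57, limma adjusted p = 0.998).

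**Figure D1:**
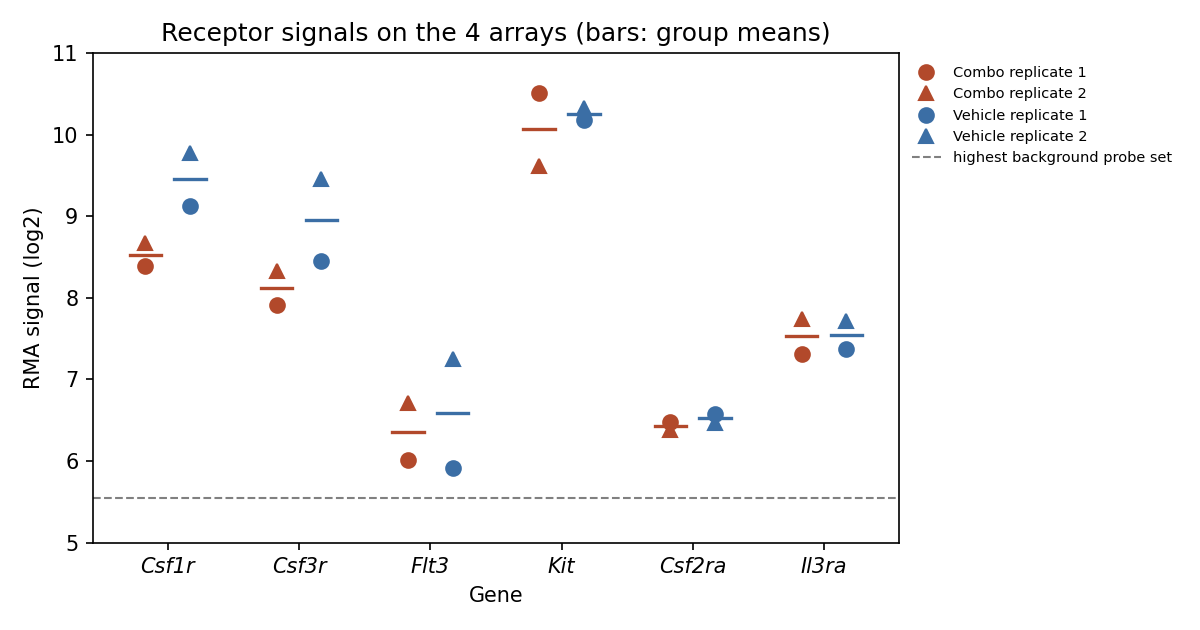
RMA signal (log2, vertical axis) of the 6 measured receptors, ordered by difference, with Combo arrays in red left of Vehicle arrays in blue, circles for replicate 1, triangles for replicate 2, bars for group means and a dashed line at the brightest background probe set (5.55). Combo lies below Vehicle without overlap for Csf1r and Csf3r only, and the other 4 receptors overlap.

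**Figure D2:**
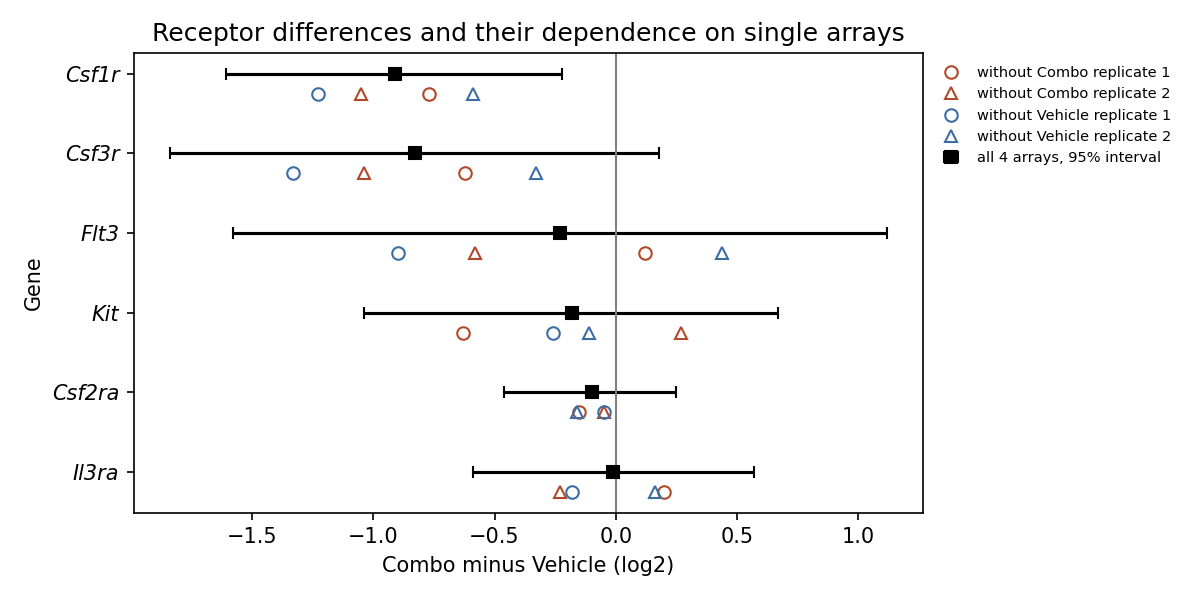
Combo minus Vehicle (log2, horizontal axis) for each receptor: black squares with 95% intervals from limma on all 4 arrays, and open symbols for the value with 1 array left out. Csf1r, Csf3r and Csf2ra stay below 0 without any 1 array, at -1.23 to -0.59, -1.33 to -0.33 and -0.16 to -0.05, and Flt3, Kit and Il3ra cross it.

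By the Euclidean distance between array profiles, each centred on its own mean over the 4 arrays, the genes most like Csf1r among 19471 other named genes were Cd48, Blnk and Cdk10. Cd48, a surface molecule of leukocytes, had signals of 11.64 and 12.04 in Combo, against 12.47 and 13.09 in Vehicle, at a distance of 0.0903. Blnk, a B cell signalling adaptor whose group means lay within the background range, was at 0.095, and Cdk10, a cyclin-dependent kinase gene, at 0.124. As with Csf1r, replicate 2 was the higher array within each group for all 3. A profile of 4 values is matched closely by some of many genes, so likeness describes these arrays only.

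Of the 7 ligand genes of these receptors, Csf1 and Flt3l were above the background range, while Csf2, Csf3, Il3, Il34 and Kitl lay within it in both groups. Csf1, which encodes M-CSF, had signals of 7.28 and 6.90 in Combo, against 6.78 and 6.74 in Vehicle, a log2 difference of 0.33 (limma adjusted p = 0.935). Flt3l, which encodes FLT3 ligand, had 7.13 and 7.18 in Combo, against 7.70 and 7.42 in Vehicle, a log2 difference of -0.40 (limma adjusted p = 0.892). The Combo arrays lay wholly above the Vehicle arrays for 2 of 7 ligands, Csf1 and the dim Il34, against 20.4% of all features. They lay wholly below for 1 of 7, Flt3l, against 13.9%. No ligand passed limma's test at an adjusted or an unadjusted p under 0.05 (0 of 7 each), against 0.00303% and 5.58% of all features.

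Among 14 measured receptors of related class or shared chains, limma's adjusted test passed 0. At an unadjusted p under 0.05, 3 of 14 were higher in Combo, against 3.14% of all features, and 3 lower, against 2.44%. Il7r, the IL-7 receptor chain of early lymphoid cells, had signals of 7.24 and 8.21 in Combo, against 5.44 and 6.03 in Vehicle. Its signal in Vehicle replicate 1 was below the brightest background probe set (5.55). Ifngr1, a chain of the interferon-gamma receptor, differed by 1.39. The other members with the smallest p were Il2ra and Il6st, chains of the IL-2 and IL-6 family receptors, at -2.70 and -2.09. The 14 differences had a median of 0.21 and spread from -2.70 to 1.99, while those of the 6 growth factor receptors stayed within -0.91 and -0.01. These ranges come from lists of unequal size, chosen with earlier results of these data known. The erythropoietin receptor gene Epor had overlapping groups, at 8.55 and 7.97 in Combo against 9.22 and 8.42 in Vehicle.

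Downstream of the receptors, 0 of 21 measured proximal signalling genes passed limma's adjusted test. At an unadjusted p under 0.05, 2 of 21 were higher, against 3.14% of all features, and 0 lower, against 2.44%. Pik3r1, a regulatory subunit of PI3 kinase, differed by 0.80, and Jak2, the kinase bound to the beta chain, by 0.54. Plcg2, a phospholipase, and Vav1, a Rac exchange factor, differed by -0.66 and -0.64, both with Combo arrays below Vehicle arrays. Stat5a, Stat5b and Stat3, which encode transcription factors used by these cytokine receptors, differed by -0.29, -0.17 and -0.01 with overlapping groups. The median of the list was -0.01.

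Inhibitors and ubiquitin ligases had a median of 0.20 over 17 measured genes, with 0 past limma's adjusted test. At an unadjusted p under 0.05, 3 of 17 were higher in Combo, against 3.14% of all features, and 1 lower, against 2.44%. Sla, which encodes the Src-like adaptor, known to promote the breakdown of immune receptors, had signals of 9.18 and 9.48 in Combo, against 5.86 and 7.12 in Vehicle. Its groups were far apart, with a log2 difference of 2.84 (SE 0.45, limma adjusted p = 0.466). Inpp5d, the lipid phosphatase SHIP1, and Socs1, an inhibitor of JAK kinases, differed by 0.91 and 0.72, with Socs1 at or below the background maximum in Vehicle (mean 5.05), and Ptpn6, the tyrosine phosphatase SHP-1, by -0.98. Cbl and Cblb, ubiquitin ligases that remove activated Kit, Flt3 and Csf1r, had overlapping groups and differed by -0.54 and 0.07. Adam17, a protease that can shed Kit and Csf1r from the surface, differed by -0.23.

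STAT5 and growth factor target genes had a median of 0.05 over 21 measured genes, with 0 past limma's adjusted test. At an unadjusted p under 0.05, 2 of 21 were higher, against 3.14% of all features, and 1 lower, against 2.44%. The classic STAT5 target Cish had signals of 10.24 and 11.41 in Combo, against 10.49 and 11.08 in Vehicle, and Socs2, another, differed by 0.22. Both had overlapping groups. Fos and Dusp6, genes of the response to MAP kinase signals, differed by 1.50 and 1.20, with Fos above the brightest background probe set on 1 of 4 arrays, and Myc and the kinase gene Pim2 by -0.77 and -1.10.

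Among 19 measured transcription factors known to drive receptor genes, 12 had a negative difference, against 44.6% of all features. The median was -0.23, with 0 past limma's adjusted test. At an unadjusted p under 0.05, 3 of 19 were higher, against 3.14% of all features, and 3 lower, against 2.44%. Irf8, a factor of monocyte and dendritic progenitors, had signals of 6.34 and 6.65 in Combo, against 7.33 and 8.62 in Vehicle. Its Combo arrays were below its Vehicle arrays, with Vehicle replicate 2 the highest, as for Csf1r and Csf3r. Lmo2, a partner of the transcription factor Tal1, differed by -0.59. Mitf, a mast cell factor, and Cebpb, a myeloid factor, differed by 0.89 and 0.47. Cebpa, the factor best known for driving Csf3r, had overlapping groups, at 10.82 and 11.13 in Combo against 10.95 and 11.69 in Vehicle, and Runx1 had a difference of -0.49.

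**Figure D3:**
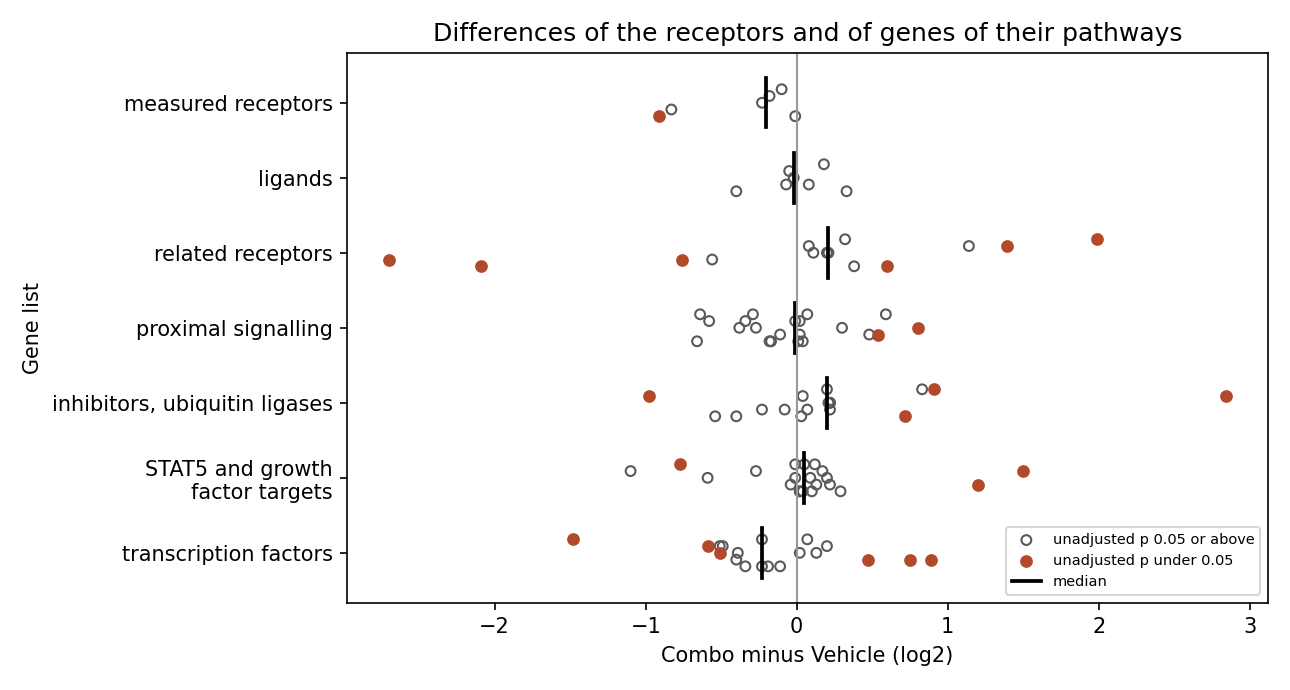
Combo minus Vehicle (log2, horizontal axis) for every measured gene of each list (rows), filled where limma's unadjusted p was under 0.05, with a bar at each list's median. The receptors, at the top, all lie at or below 0, with Csf1r the only filled point, and of these 7 rows the related receptors and the inhibitors have the widest ranges, -2.70 to 1.99 and -0.98 to 2.84.

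Markers of the cells that carry these receptors were set beside them, and their part in the results was not tested. Over all features, 44.6% had a negative difference, and 3.14% were higher and 2.44% lower at limma's unadjusted p under 0.05. Of 11 measured monocyte and macrophage markers, 3 were higher and 3 lower in Combo at limma's unadjusted p under 0.05 and 0 passed the adjusted test. Their mean signal was 8.44 and 8.50 in Combo, against 8.20 and 8.41 in Vehicle, a mean over members that differed in both directions. The 3 higher were F13a1, Cd14 and Ms4a6c, at 2.92, 2.43 and 1.68. The 3 lower, in the direction of Csf1r, were Mrc1, the macrophage mannose receptor gene, at -2.19, the chemokine receptor gene Ccr2 at -1.77 and Adgre1, which encodes F4/80, at -0.56. Only C1qa lay within the background range. In Combo, Ccr2 lay at 5.58 and 5.72, above the brightest background probe set but below the negative control medians.

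For Csf3r the neutrophil markers are the nearest set. Of 12 measured, 11 had a positive difference and 1, Ly6g, a negative one, where 44.6% of all features had a negative difference. At limma's unadjusted p under 0.05, 3 were higher, against 3.14% of all features, and 0 lower, against 2.44%. None of the 12 markers passed the adjusted test. Their mean was 10.10 and 8.49 in Combo, against 9.11 and 7.02 in Vehicle, which puts replicate 1 above replicate 2 in both groups, the opposite of Csf3r. Ly6g, Mmp9 and Retnlg lay within the background range by their group means, with Retnlg above 5.55 on 2 of 4 arrays, at 6.92 in Combo replicate 1 and 6.13 in Vehicle replicate 1. Il1r2, Cxcr2 and Mmp8 had the smallest p, with differences of 5.99, 4.32 and 2.43. Only for these 3 did the Combo arrays lie wholly above the Vehicle arrays, against 20.4% of all features. The list had a median of 0.39. Camp, S100a9, Ltf and Ngp had overlapping groups and differed by 0.03, 0.09, 0.14 and 0.70, with SEs of 2.42, 0.66, 2.10 and 2.62. The Vehicle means of Il1r2 and Mmp8, 4.61 and 5.32, were not above the brightest background probe set, so their differences may be understated.

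Dendritic cell markers, a list that holds Flt3, were lower on average: 8 of 11 measured had a negative difference, against 44.6% of all features. At limma's unadjusted p under 0.05, 4 were lower, against 2.44% of all features, and 0 higher, and 0 passed the adjusted test. Their mean was 5.38 and 5.42 in Combo, against 5.84 and 6.08 in Vehicle, with Cd209a and Ciita at -2.25 and -1.04, and Ciita below the background maximum in Combo (mean 5.08). Xcr1, Clec9a, Itgax, Ccr9 and Zbtb46 lay within the background range. The 3 markers with a positive difference were Xcr1, Itgax and Siglech. Siglech, above that range, had 6.48 and 6.44 in Combo, against 6.36 and 6.30 in Vehicle. All 11 progenitor markers, Kit among them, had a negative difference, against 44.6% of all features. The differences were mostly small, from -0.77 to -0.07 with a median of -0.17. Progenitor marker means were 12.44 and 12.57 in Combo, against 12.64 and 12.86 in Vehicle. At limma's unadjusted p under 0.05, 2 were lower (Myb and Myc) and 0 higher, and 0 passed the adjusted test. Mast cell and basophil markers, which matter for Kit and Il3ra, averaged 8.17 and 8.36 in Combo, against 8.06 and 8.34 in Vehicle. Yet 7 of 11 measured had a negative difference, against 44.6% of all features. Their median was -0.19, with a range from -0.41 to 1.71. At limma's unadjusted p under 0.05, 2 of 11 were higher (Hdc and Mitf, at 1.71 and 0.89). At that p, 1 was lower (Ms4a2, at -0.40), and 0 passed the adjusted test. Of all features, 3.14% were higher and 2.44% lower at that unadjusted p.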

How the data were processed

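The deposited values are log2 signals. Per the submitters' processing notes, the authors used the Transcriptome Analysis Console and RMA. No source used here gives the console's version or a genome build. Per the labels' protocols, 10 ng of total RNA was labelled with the WT Pico kit. RMA draws the arrays towards a common distribution and compresses low signals, so differences of dim genes are understated. From 72688 rows, 6732 control rows were left out by identifier. Symbols came from the platform annotation (exactly 1 per probe set), updated through Entrez identifiers, with the brightest probe set per gene. Each measured receptor had 1. The test was limma 3.58.1 (lmFit and eBayes, R 4.3.3) on all 65956 features, with a term for the group alone, two-sided, Benjamini-Hochberg adjusted. Residual degrees of freedom were 2, and the prior added 2.59. Intervals are limma's and unadjusted. The fit was tested on simulated data. Named were all receptors and, per pathway list, up to 4 genes by smallest p, while further list genes were named after their values were seen. Likeness was computed for the receptor with the largest downward difference, since no difference was upward. The receptors, lists and rules were chosen with earlier results of these data known. Marker lists beside receptors are given by counts and means.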

Additional observations from a re-analysis of the deposited data

How the results depend on the processing

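In limma the count of features past the adjusted threshold, 2 on all 4 arrays, was 19 with the replicate block, 0 with an intensity trend, with features above the median signal, with features above the 25th percentile, with control rows kept and after a second quantile normalization, and 0 without any 1 array. Some of these fits hold fewer samples or features, and the cause of the changed counts was not tested. The count of receptors past it was 0 in all 13 alternatives run. Where a fit called 0 features in all, that count could only be 0. With the replicate block the difference of Csf1r had an adjusted p of 0.297. The replicate differences of the groups correlated at 0.33 over features and at 0.40 over features above the median signal. The neutrophil marker means fell from replicate 1 to replicate 2 in both groups. In the labels, samples of a pair share only a replicate number, and whether they share a source was not tested. The main fit leaves such shared shifts in its error. Differences reversed without 1 array for Kit (range -0.63 to 0.27), Flt3 (-0.90 to 0.44, with 0.12 and 0.44 above 0) and Il3ra (-0.23 to 0.20, with 0.20 and 0.16 above 0). The median of the receptors ranged from -0.58 to -0.13 in those fits and from -0.26 to -0.18 in the others. The ratio of Csf2rb2 to Csf2rb was not run, since neither is analysed here, and the mean over probe sets changes nothing where a gene has 1.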
